A study of Homo sapiens with 4 samples.

Results

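Immediate early and MAPK feedback genes were described in LAPC4, a human cell line derived from a prostate cancer and responsive to androgen. The 10 genes were fixed by name as serum and growth factor responsive genes (FOS, JUN, JUNB, EGR1, IER2, IER3, DUSP1, DUSP6, KLF6 and ZFP36), and every probe set annotated to one of them alone was taken, which gave 19 of the 22277 probe sets on the array. Each of 4 Affymetrix arrays held RNA of 1 condition: cells with β-TrCP shRNA in charcoal stripped serum (shRNA CSS), cells with the shRNA in full fetal calf serum (shRNA FCS), GFP vector cells in charcoal stripped serum (GFP CSS), and GFP vector cells in full fetal calf serum (GFP FCS). All cells were infected with a lentivirus and treated for 72 hours. The FCS medium held 10% serum with 100 pM methyltrienolone, a synthetic androgen, and the CSS medium held 10% serum from which charcoal removes steroids. The shRNA is directed at both β-TrCP genes, and the methods describe it as induced by doxycycline, while the labels give a GFP vector as the control. The study's text elsewhere gives cells with the uninduced shRNA vector as the control, and which of these the GFP arrays held was not settled. Effects of the shRNA, of doxycycline and of the vector cannot be told apart. GFP is used below as the labels give it. Serum stripping and the loss of the added androgen cannot be told apart either.

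Growth factors and serum activate the RAS, RAF, MEK and ERK kinases, which switch on a first wave of genes without new protein synthesis through SRF, its ETS partners and CREB. Products of these immediate early genes include the AP-1 subunits FOS, JUN and JUNB and the zinc finger factors EGR1 and KLF6, and their messengers are mostly short-lived. The same wave encodes its own brakes: DUSP1 and DUSP6 are phosphatases that inactivate MAP kinases, and ZFP36 binds AU-rich messengers and promotes their decay. Prostate cancer cells carry this response downstream of EGF family receptors, and it is strongest soon after a stimulus, whereas the arrays here were taken at a single late time.

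The promoters of 9 of the 10 genes were matched in a RefSeq promoter table (build GRCh38.p14, 250 bases before to 50 after each start). EGR1, FOS, JUN and DUSP1 are shown because serum and cAMP elements are the textbook route of their induction and these windows hold letters that match such elements. Capitals mark CArG boxes (the SRF site), the cAMP element TGACGTCA and its core TGACG, and the JUN-type site TGACATCA, each sought on both strands, so that the core reads CGTCA where it lies on the other strand. The core is part of the full element.
EGR1 (chr5:138465229-138465528, plus strand): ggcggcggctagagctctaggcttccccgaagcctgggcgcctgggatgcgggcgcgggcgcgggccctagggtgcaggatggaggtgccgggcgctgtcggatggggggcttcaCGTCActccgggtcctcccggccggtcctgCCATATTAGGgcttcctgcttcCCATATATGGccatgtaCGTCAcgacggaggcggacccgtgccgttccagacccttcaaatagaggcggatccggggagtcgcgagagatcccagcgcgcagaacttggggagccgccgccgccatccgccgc
FOS (chr14:75278578-75278877, plus strand): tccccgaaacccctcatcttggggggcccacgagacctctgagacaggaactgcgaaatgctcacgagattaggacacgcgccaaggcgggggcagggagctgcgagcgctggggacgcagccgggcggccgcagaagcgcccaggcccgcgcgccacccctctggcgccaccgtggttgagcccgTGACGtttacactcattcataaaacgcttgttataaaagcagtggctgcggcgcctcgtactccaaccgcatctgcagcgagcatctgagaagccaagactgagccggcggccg
JUN (chr1:58783998-58784297, minus strand): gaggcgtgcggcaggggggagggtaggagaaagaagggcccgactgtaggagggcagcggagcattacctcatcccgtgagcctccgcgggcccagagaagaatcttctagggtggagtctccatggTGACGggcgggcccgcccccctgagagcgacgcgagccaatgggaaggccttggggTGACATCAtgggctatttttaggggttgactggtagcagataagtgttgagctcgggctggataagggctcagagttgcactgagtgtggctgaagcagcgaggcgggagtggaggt
DUSP1 (chr5:172771146-172771445, minus strand): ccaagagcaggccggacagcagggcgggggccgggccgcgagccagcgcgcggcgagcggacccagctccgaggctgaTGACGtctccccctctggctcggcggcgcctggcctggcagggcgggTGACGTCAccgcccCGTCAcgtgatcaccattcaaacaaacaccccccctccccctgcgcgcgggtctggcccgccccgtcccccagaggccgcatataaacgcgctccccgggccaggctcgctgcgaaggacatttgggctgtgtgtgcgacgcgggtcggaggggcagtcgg
The EGR motif GCGNGGGCG was in the promoters of EGR1 and KLF6 (9.28% of all), and the AP-1 site TGAGTCA (4.92% of all) in none of the 9. EGR1 was the only one of the 9 with a CArG box in this window, and it held 2, CCATATTAGG and CCATATATGG. A CArG box was found in 1.29% of all 27305 promoters of this length. DUSP1 alone held the full element TGACGTCA (1.98% of all promoters), and the core TGACG was in 6 of the 9 promoters, those of JUN, EGR1, DUSP1, FOS, JUNB and IER2, against 25% of all. The site TGACATCA was in the promoters of JUN and KLF6 (2.71% of all). These are matches of letters and not sites of binding.

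The array of shRNA CSS stood apart from the other 3 before any normalization. Its Pearson correlation with them over all probe sets was 0.946 to 0.948, theirs with each other was 0.985 to 0.992, and its interquartile range was 2.07 on the log2 scale, against 2.69 to 2.74. Quantile normalized log2 values with a floor at a signal of 20 (4.32) are used below. For the 10 genes fixed by name, where the deposited values give another direction they are given too. For genes of other lists changes were worked out from the normalized values alone. The knockdown was seen in FBXW11 (β-TrCP2), at 4.68 in shRNA CSS, 5.02 in shRNA FCS, 8.19 in GFP CSS and 8.02 in GFP FCS, while BTRC (β-TrCP1) was at the floor with the shRNA and at 4.64 and 4.50 without it. Of 9 luminal prostate markers 7 had a probe set of their own, and 6 or 7 of these were above the floor on every array (KRT8, KRT18, HOXB13, KLK2, KLK3 and TMPRSS2 on all 4). The basal epithelial markers KRT14 (6.07 to 6.36) and KRT15 (4.90 to 5.94) were also above the floor on all 4. KRT5 was at the floor on all, and TP63 had no probe set of its own. Of 7 fibroblast markers 4 were above the floor in shRNA CSS and 1 on each other array (summed signal 130 in shRNA CSS and 91.9 to 94.3 on the others); COL3A1, LUM and FAP were below a signal of 20 on all arrays. Of 8 leukocyte markers 2 were above it in shRNA CSS (73.4) and none on the others (60.0, all at the floor), and PTPRC was below 20 on every array. Among 5 endothelial markers only TEK was above the floor, and only in shRNA CSS (4.58). The part of these in the values of shRNA CSS was not tested.

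With 1 array per condition no difference between 2 conditions has a replicate check. Beside each log2 change stands the local spread, a robust SD of log2 ratios on the same 2 arrays over the 1000 closest probe sets by mean signal, which describes how far probe sets of like signal differed for any cause. None of the measured genes reached 2-fold in any of the 5 comparisons after quantile normalization. The pattern was one of small differences. By their brightest probe sets 7 of 8 measured genes were higher in stripped than in full serum in GFP cells (53.3% of all genes). JUNB, IER3 and ZFP36 were lower with the shRNA in either serum. These changes lay within the local spread for JUNB in both sera and for IER3 in CSS.

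FOS and EGR1, the textbook first responders, were not measurable at this signal. The single probe set of FOS, the partner of JUN in AP-1, had deposited log2 values of 4.24 in shRNA CSS, 4.29 in shRNA FCS, 4.23 in GFP CSS and 3.95 in GFP FCS. Both probe sets of EGR1, a zinc finger factor, lay between 3.71 and 3.95. All of these are under the minimum of 4.32, as was the third probe set of KLF6 (3.56 to 3.76), so that no fold is given for them. The other 15 probe sets, of 8 genes, passed the minimum.

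JUN, the AP-1 subunit that can pair with FOS or with itself, had 4 probe sets. The brightest, of a class (x_at) whose probes can also match other transcripts, had log2 signals of 8.96 in shRNA CSS, 8.53 in shRNA FCS, 8.68 in GFP CSS and 8.43 in GFP FCS. JUN was thus lowest in the control and, after quantile normalization, highest with both treatments; in the deposited values GFP CSS was highest, at 8.77 against 8.71 in shRNA CSS. Its log2 change was 0.54 with both treatments against the control (1.45-fold, local spread 0.38) and 0.44 for CSS in shRNA cells (local spread 0.33). The deposited values give 0.19 and 0.07 for these 2 changes. In GFP cells CSS gave 0.26 (local spread 0.31). All 4 probe sets were higher in CSS in GFP cells, by 0.26, 0.61, 0.54 and 0.33, the brightest first. With both treatments they differed, by 0.54, 0.62, -0.05 and 0.05, so that the change seen in the brighter pair was not seen in the dimmer pair.

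JUNB, an AP-1 subunit that often opposes JUN, was measured by 1 probe set at 5.78 in shRNA CSS, 5.96 in shRNA FCS, 6.51 in GFP CSS and 6.20 in GFP FCS. Both shRNA arrays were lower than both GFP arrays. With the shRNA its log2 change was -0.74 in CSS (1.67-fold lower, local spread 0.74) and -0.24 in FCS (local spread 0.28). In GFP cells JUNB was 0.31 higher in CSS than in FCS, just over the local spread of 0.28.

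KLF6, a Krüppel-like factor with growth-restraining activity in the prostate, was at 6.62 in shRNA CSS, 6.20 in shRNA FCS, 6.49 in GFP CSS and 6.08 in GFP FCS in its brightest probe set. In this probe set, as normalized, both CSS arrays exceeded both FCS arrays. In the second GFP CSS was at 6.00 and shRNA FCS at 6.04. The log2 change in CSS was 0.41 in GFP cells (1.33-fold, local spread 0.27) and 0.42 in shRNA cells (local spread 0.71), which the deposited values give as -0.07. The second probe set was higher in CSS by 0.24 in GFP cells and 0.61 in shRNA cells, and it was 0.89 higher with both treatments (1.86-fold, local spread 0.77), the largest change of the 15 measured probe sets in that comparison.

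IER2, a nuclear protein of the first wave, was higher than in the control in each of the other conditions. Its log2 signal was 9.36 in shRNA CSS, 9.24 in shRNA FCS, 9.11 in GFP CSS and 8.82 in GFP FCS. The order of the other 3 depended on the normalization, the deposited values being 9.15 in shRNA CSS, 9.33 in shRNA FCS, 9.17 in GFP CSS and 8.92 in GFP FCS. With both treatments it was 0.54 higher (1.46-fold, local spread 0.35), or 0.22 as deposited, with the shRNA in FCS 0.41 higher (local spread 0.31) and with CSS in GFP cells 0.29 higher (local spread 0.32).

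IER3, which is induced by ERK and by NF-κB and modulates cell survival, was lower with the shRNA. It was at 7.51 in shRNA CSS, 7.23 in shRNA FCS, 7.92 in GFP CSS and 8.01 in GFP FCS, with both shRNA arrays below both GFP arrays. With the shRNA in FCS it was 1.72-fold lower, a log2 change of -0.78 against a local spread of 0.36. Of 7991 genes with a value in that comparison, 101 had a lower change. In CSS the shRNA gave -0.41 (local spread 0.42), and both treatments gave -0.50 against the control (local spread 0.46), or -1.01 with the values as deposited. Stripped serum alone changed IER3 by -0.09.

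**Figure D1:**
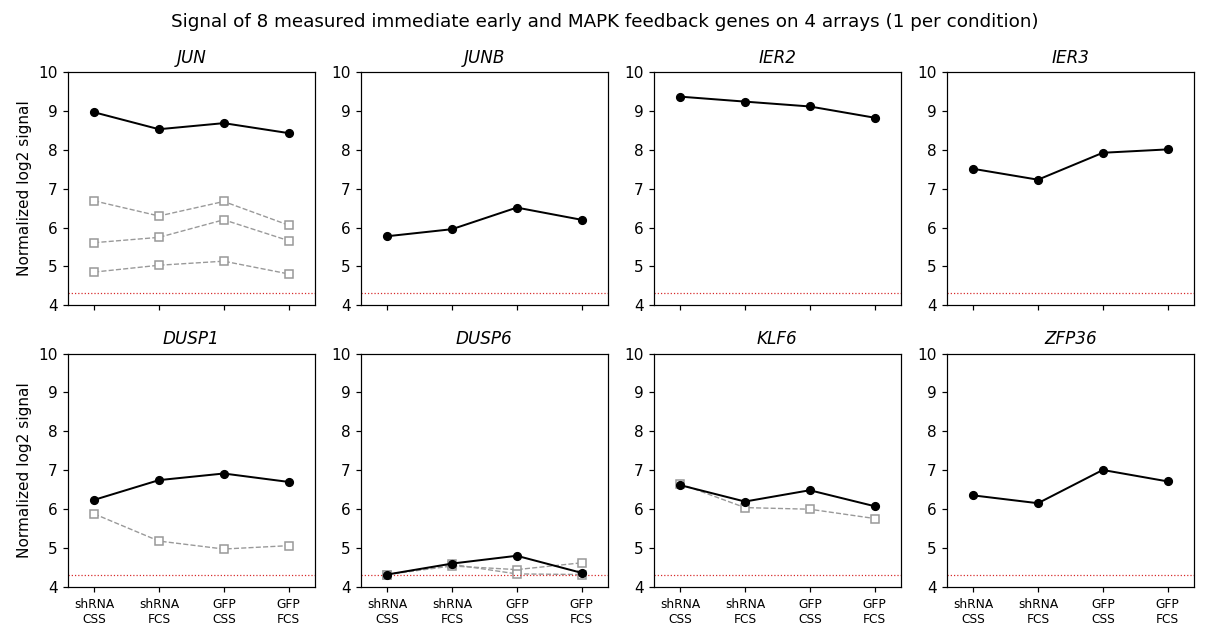
Normalized log2 signal (vertical axis) of the 8 measured genes on the 4 arrays (horizontal axis, 1 array per condition). Filled points are the brightest probe set, open squares the other measured probe sets, and the dotted line the floor of 4.32; JUNB, IER3 and ZFP36 are lower on both shRNA arrays than on both GFP arrays, and DUSP6 is at the floor in shRNA CSS in all 3 probe sets.

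Among the feedback genes, ZFP36 (tristetraprolin), which promotes decay of AU-rich messengers, was lower with the shRNA. It was at 6.36 in shRNA CSS, 6.15 in shRNA FCS, 7.01 in GFP CSS and 6.72 in GFP FCS. Both shRNA arrays were below both GFP arrays. The log2 change with the shRNA was -0.56 in FCS (1.47-fold lower, local spread 0.30) and -0.65 in CSS (1.57-fold lower, local spread 0.58). In GFP cells CSS changed it by 0.29, at a local spread of 0.29.

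DUSP1, a nuclear phosphatase of p38, JNK and ERK, had 2 probe sets that went opposite ways. The brighter was at 6.24 in shRNA CSS, 6.75 in shRNA FCS, 6.92 in GFP CSS and 6.70 in GFP FCS. The dimmer, of the x_at class, was at 5.88 in shRNA CSS, 5.18 in shRNA FCS, 4.98 in GFP CSS and 5.06 in GFP FCS. The array of shRNA CSS was thus the lowest of 4 in one probe set and the highest in the other. With the shRNA in CSS the changes were -0.68 (local spread 0.61) and 0.90 (local spread 1.04), and no direction can be given for DUSP1 on that array. On the other 3 arrays DUSP1 differed little. Its brighter probe set changed by 0.22 for CSS in GFP cells and 0.05 for the shRNA in FCS. The dimmer changed by -0.09 and 0.12.

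DUSP6, the cytoplasmic phosphatase of ERK whose level is often read as ERK output, lay near the floor. Its leading probe set was at the floor of 4.32 in shRNA CSS, at 4.60 in shRNA FCS, at 4.80 in GFP CSS and at 4.37 in GFP FCS. All 3 probe sets were at the floor in shRNA CSS, where only a bound can be given: at least 1.40-fold lower with the shRNA in CSS and at least 1.22-fold lower with CSS in shRNA cells. In GFP cells CSS gave a log2 change of 0.44 in the leading probe set (1.36-fold, local spread 0.16) and -0.17 in the second, and the third was at the floor in FCS. The 3 probe sets thus did not show one direction for serum.

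Stripped against full serum in GFP cells gave the most even picture by the brightest probe sets. Of the 8 measured genes 7 were higher in CSS, where 53.3% of all 7994 genes with a value were higher, and 1 was lower (46.7% of all). The median log2 change was 0.29 over these 8 genes and 0.02 over all genes. Changes exceeded the local spread upward for JUNB, DUSP6 and KLF6 by their brightest probe sets (3 of 8, against 16.5% of all genes) and for no gene downward (13.9% of all). The probe sets of DUSP6 did not share a direction, and its mean over probe sets was 0.09. Those of DUSP1 did not either, the second giving -0.09 and the mean 0.07. By means over probe sets 7 of the 8 genes were still higher. Neither direction held a 2-fold change among them (0.163% of all genes higher and 0.138% lower) or a 1.5-fold change (2.46% and 2.23%).

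In shRNA against GFP cells in FCS the 8 genes divided. There were 5 higher (49.8% of all 7991 genes) and 3 lower (50%), with a median of 0.07 against 0.00 over all genes. IER2 and DUSP6 were higher by more than the local spread (2 of 8, against 15.2% of all) and IER3 and ZFP36 lower by more than it (2 of 8, against 16.4%). IER3 alone was at least 1.5-fold lower (3.35% of all), and none was 1.5-fold higher (3.22%). No gene of the 8 reached 2-fold, which 0.801% of all genes did upward and 0.4% downward.

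In shRNA CSS, whose array stood apart, larger shares of all genes passed any size. Against the GFP FCS control 3 of the 8 genes were higher (52.5% of all 8697) and 5 lower (47.4%), with a median of -0.20 against 0.03 over all genes. The kept probe sets were binned by mean log2 signal on the arrays other than shRNA CSS. Those of 6.22 to 7.50, where JUNB, DUSP1, KLF6 and ZFP36 lay, had a median of -0.17 in this comparison. None was 2-fold higher (7.95% of all) or lower (6.9%), while IER3 was 2-fold lower with the deposited values. JUN and IER2 exceeded the local spread upward (13.8% of all) and IER3 downward (13.9%). Against shRNA FCS 5 genes were higher (52% of all 8727) and 3 lower (47.9%), JUN alone exceeding the local spread upward (13.8%) and none downward (13.4%). None was 2-fold higher (7.9%) or lower (6.63%). With the deposited values 1 was higher and 7 were lower, where the median of all genes was -0.19. Against GFP CSS 3 were higher (50.5% of all 8730) and 5 lower (49.3%), with a median of -0.45 against 0.01. JUNB, DUSP1 and ZFP36 were at least 1.5-fold lower in that comparison by their brightest probe sets (3 of 8, against 16.4% of all), and none was 1.5-fold higher (16.6%). DUSP1 and ZFP36 exceeded the local spread downward by the same measure (13.9% of all) and none upward (13.2%). Both counts fall by 1 if DUSP1 is set aside, whose other probe set was 0.90 higher and whose mean over probe sets was 0.11. None was 2-fold changed (7.72% higher and 6.74% lower). With the deposited values all 8 were lower in their brightest probe sets and JUNB, DUSP1 and ZFP36 passed 2-fold. The median of all genes was -0.20 in that comparison as deposited, and no share of all genes is given for these values. Against GFP FCS the probe sets of 6.22 to 7.50 had a deposited median of -0.64. The comparisons share arrays, so that they are not independent of each other.

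**Figure D2:**
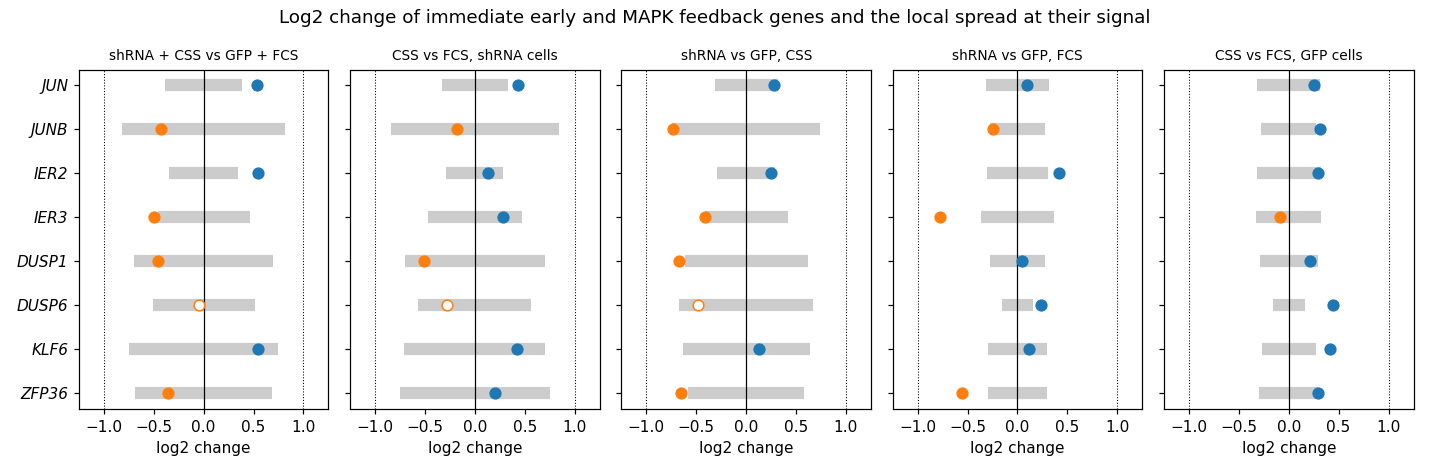
Log2 change (horizontal axis) of the 8 measured genes in 5 comparisons, 1 array against 1. Grey bars span the local spread on either side of 0, dotted lines mark 2-fold, blue points are higher, orange points lower and open points bounds at the floor; IER3 at -0.78 and ZFP36 at -0.56 with the shRNA in FCS and DUSP6 at 0.44 with CSS in GFP cells lie well outside the bars.

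Main effects of serum and of the shRNA were tested over all 4 arrays in an additive model with limma, which leaves 1 residual degree of freedom and counts any interaction as error. No measured gene passed an adjusted p of 0.05 for serum, where 1.46% of 7965 genes were called higher and 1.67% lower, or for the shRNA, where 1.93% were called higher and 2.67% lower. Without adjustment 1 of the 8 passed for serum (1053 of all 7965 genes) and 2 for the shRNA (1040 of all 7965). JUN had a serum effect of 0.35 with an SE of 0.14 (limma adjusted p = 0.212), and was higher in CSS in both cell types in its brightest probe set (by 0.07 in shRNA cells as deposited). The other 3 probe sets of JUN gave 0.39, -0.14 and -0.18 for CSS in shRNA cells, and -0.11, -0.38 and -0.13 as deposited. IER3 had an shRNA effect of -0.60 with an SE of 0.21 (limma adjusted p = 0.0958) and IER2 one of 0.33 with an SE of 0.12 (limma adjusted p = 0.106), each in the same direction in both sera, although IER2 in CSS gave -0.02 as deposited. The variances came wholly from their trend on signal, because limma set its prior degrees of freedom to infinity. Without the trend no gene of 7965 passed for either factor, and 305 passed for serum and 381 for the shRNA without adjustment.

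The sum of the single changes was set against the change with both treatments. JUN (0.36 and 0.54), KLF6 (0.53 and 0.54), IER2 (0.70 and 0.54) and ZFP36 (-0.27 and -0.36) came within 0.18 of additivity after quantile normalization. As deposited they departed by -0.17, -0.53, -0.42 and -0.57 in the same order of genes, and the other probe sets of JUN departed by -0.22, -0.67 and -0.50 after normalization. The brighter probe set of DUSP1 departed by -0.72 and JUNB by -0.49, while IER3 departed by 0.37, its combined change being smaller in size than the sum of -0.86. As deposited IER3 departed by -0.15, the combined change of -1.01 being larger in size than the sum of -0.87. The other probe set of DUSP1 departed by 0.79. Departures of DUSP1 and JUNB lay near or within the local spreads of the combined comparison of 0.69 and 0.82. No degree of freedom is left to test an interaction.

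Other genes of the pathway were described from lists chosen by name, and whether their directions hold in the deposited values was not tested. Of 31 other immediate early genes 24 were measured. In GFP cells CSS gave 17 higher and 4 lower of 21 with a value (53.3% and 46.7% of all genes, median 0.23). JUND, the AP-1 subunit usually expressed at a constant level, was 2.07-fold higher in CSS in GFP cells (9.95 against 8.90). ATF3, a stress-induced factor of the same family, was 2.29-fold higher (8.63 against 7.44). Both were singled out after their values were seen. They were the only 2 genes of this list past 2-fold there (0.163% of all genes higher). With the shRNA in FCS 14 were higher and 7 lower (49.8% and 50% of all genes, median 0.13). ATF3 was 2.50-fold and IER5, a regulator of heat shock factor, 1.98-fold higher there. Of the 23 genes of the list with a value, 16 were higher and 7 lower with both treatments (52.5% and 47.4% of all genes). Among those above the floor on both arrays the largest were those of SGK1, a kinase induced by steroids and serum (-1.98, local spread 0.62), and KLF10, a factor induced by TGFβ (-1.42, local spread 0.87). MAFF, a small MAF factor named after its value was seen, was at the floor in shRNA CSS and at least 2.92-fold lower there than in GFP FCS. CCN1, a matricellular protein and SRF target, changed by 1.31 in one probe set and -1.21 in the other.

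Receptors at the head of the cascade were higher in stripped serum. In GFP cells all 5 measured genes of the EGF ligand and receptor list with a value were higher in CSS (53.3% of all genes), with a median of 0.58 against 0.02 over all genes, and each exceeded its local spread (16.5% of all). For ERBB4, at the floor in GFP FCS, the change of 0.16 is a bound. ERBB2 was at 8.79 in GFP CSS and 8.18 in GFP FCS, and ERBB3 at 8.59 in GFP CSS and 8.02 in GFP FCS. EGFR was at 7.15 in GFP CSS and 6.54 in GFP FCS in its brightest probe set, while its measured probe sets ranged from -0.07 to 0.61 in this change. With the shRNA in FCS ERBB2 was lower by 0.60 on the log2 scale, and ERBB3 and EGFR changed by -0.03 and -0.02.

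Of 22 other feedback and output genes of ERK 18 were measured. In GFP cells CSS gave 12 higher and 3 lower (53.3% and 46.7% of all genes, median 0.18). In FCS the shRNA gave 12 higher and 3 lower (49.8% and 50% of all genes, median 0.24). None of them was 2-fold changed in either comparison. Of all genes 0.163% were 2-fold higher and 0.138% lower with CSS, and 0.801% and 0.4% with the shRNA. CCND1, which drives entry into S phase, had log2 signals of 8.10 in shRNA CSS, 7.76 in shRNA FCS, 7.68 in GFP CSS and 7.40 in GFP FCS, so that it too was lowest in the control. ETV4, an ETS factor downstream of ERK, was at 6.24 in shRNA CSS, 5.60 in shRNA FCS, 5.45 in GFP CSS and 5.31 in GFP FCS. The ERK phosphatases DUSP5 and DUSP7 changed by -0.57 and -1.12 with both treatments, within their local spreads of 1.00 and 1.16.

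The median change of kinases and adaptors of the cascade was small with either single treatment, but some genes exceeded the local spread. Of 30 listed, 21 had a probe set annotated to that gene alone and 19 were measured. Medians were 0.03 for CSS in GFP cells and -0.04 for the shRNA in FCS. No gene was 2-fold changed in either (0.163% of all genes higher and 0.138% lower for CSS, 0.801% and 0.4% for the shRNA). With the shRNA in FCS 3 of 19 were lower by more than the local spread (16.4% of all) and none higher (15.2%). They were MAPK9 (-0.70, second probe set -0.52), MAP2K2 (-0.56) and RPS6KA5 (-0.44, second probe set -0.07). With CSS 3 of 18 were higher by more than it (16.5%), RPS6KA1 by 0.65, and none lower (13.9%). With both treatments the median was -0.02, and RPS6KA5 (MSK1, a kinase of CREB and histone H3) and MAPK9 (JNK2) changed by -1.64 and -1.43, although the second probe set of MAPK9 changed by 0.55. MAPK3 (ERK1) changed by 0.86 with both treatments (local spread 0.48), in 1 probe set of the x_at class. SOS2 changed by -0.89 (local spread 0.63), and its 4 measured probe sets ranged from -1.10 to -0.37. Among 11 measured activators of immediate early genes, 7 of 10 were higher in CSS in GFP cells (53.3% of all genes, median 0.15). With both treatments 7 of 10 were lower (47.4% of all genes), with a median of -0.55 against 0.03 over all genes. Probe sets with mean signals of 5.23 to 7.50 on the arrays other than shRNA CSS had medians of -0.21 to -0.17 there. MED23, the Mediator subunit contacted by ELK1, changed by -1.20 (local spread 0.84). ELK4, MRTFB and CREB1 changed by -0.71, -0.57 and -0.56, within their local spreads of 1.11, 0.68 and 0.61. The 4 measured probe sets of CREB1 ranged from -0.56 to 0.35.

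**Figure D3:**
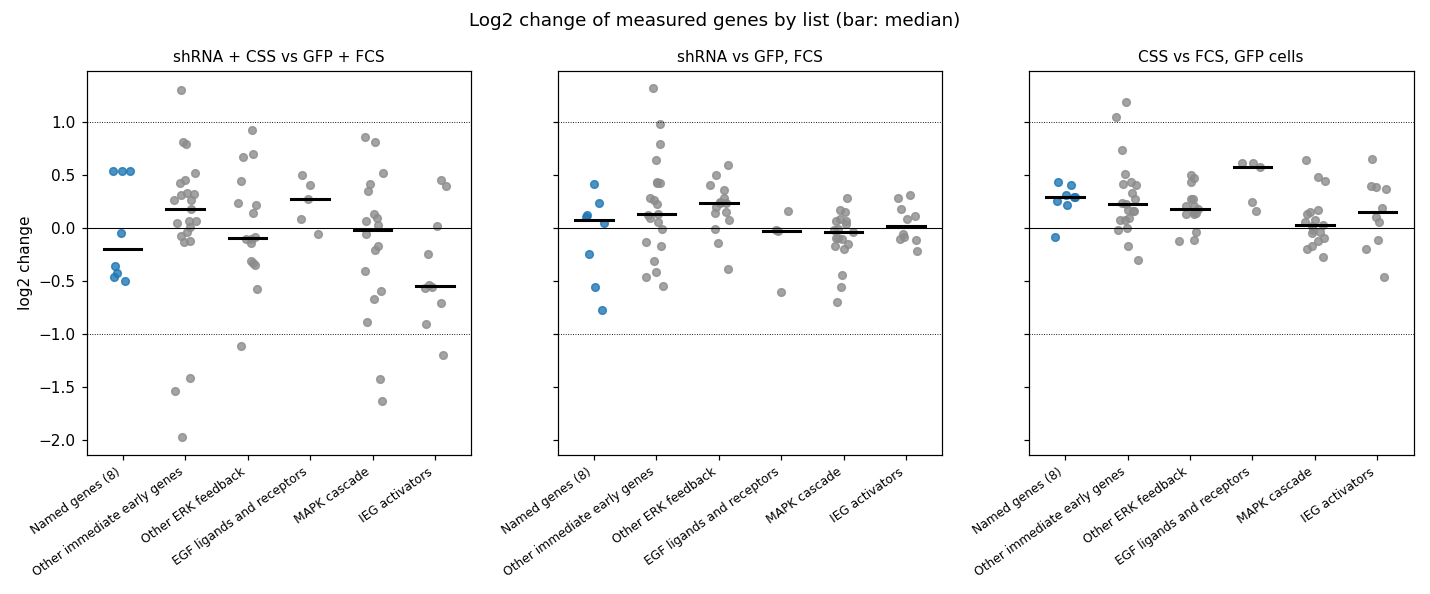
Log2 change (vertical axis) of each measured gene in 6 lists for 3 comparisons, 1 array against 1, with bars at the list medians and dotted lines at 2-fold. In GFP cells in CSS the 8 named genes lie between -0.09 and 0.44 with a median of 0.29, and with both treatments they lie between -0.50 and 0.54.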

How the data were processed

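The authors deposited log2 values of 22277 probe sets on 4 arrays. By their methods, signals came from MAS5, probe sets were kept at an intensity of 20 or more if also called present on an array, and log2 values were quantile normalized. The table holds no present calls and its columns did not share a distribution, so these steps were applied here without the calls. Whether the deposited log2 values are unchanged MAS5 signals was not tested. The 62 control probe sets were left out; 19070 probe sets named 1 gene, 1043 several and 2164 none, and symbols were updated through a RefSeq table. Those reaching a signal of 20 on any array (15643) were quantile normalized and floored at 20, and the brightest stood for each of 9193 genes. Where 1 array of a pair was at the floor a bound is given, and where both were, no value. The number of arrays, 1 per condition, limits the precision. Main effects were tested with limma 3.58.1 in R 4.3.3 (trend, Benjamini-Hochberg, threshold 0.05) on 7965 genes above the floor on at least 2 arrays. The model was also run on values simulated from the means and residuals of these data with known shRNA effects. It called 43% of 100 genes changed 2-fold and 89% of 100 changed 4-fold, with 5 false calls among 7765 unchanged genes. Changes below 2-fold were not simulated. Python 3.11.15 with pandas 2.3.3 and numpy 2.4.6 served for the rest. Alternatives covered the normalization, floor, filter, probe set rule, fold rule and limma's trend. The genes and lists were chosen with earlier results of these data known. Genes of other lists were named where their change with both treatments was among the 4 largest in the list and above the floor on both arrays; the rule for genes alike in pattern named none, since no leading probe set spanned over 1 on the log2 scale.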

Additional observations from a re-analysis of the deposited data

Results flagged for a closer look

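For 4 genes a change went opposite ways in the 2 backgrounds, and since each change rests on 1 array against 1, these differences were not tested. For CSS against FCS, the change in shRNA cells minus that in GFP cells was -0.72 for DUSP1 (-0.51 and 0.22), -0.72 for DUSP6 (-0.28, a bound, and 0.44), -0.49 for JUNB (-0.18 and 0.31) and 0.37 for IER3 (0.28 and -0.09). For the shRNA, the change in CSS minus that in FCS was -0.72 for DUSP1 (-0.68 and 0.05) and -0.72 for DUSP6 (-0.48, a bound, and 0.24). These values are of the brightest probe sets. For CSS the second of DUSP1 gave 0.70 in shRNA cells and -0.09 in GFP cells, a difference of 0.79, and the second of DUSP6 gave -0.22, a bound, and -0.17. For the shRNA the second probe sets gave the same sign in both sera, with 0.90 in CSS and 0.12 in FCS for DUSP1 and -0.13, a bound, and -0.08 for DUSP6. In each of the 6 pairs of the brightest probe sets at least 1 of the 2 changes lay within its local spread, and all 6 use the shRNA CSS array. With the deposited values the change of IER3 for CSS in shRNA cells was -0.25, the same sign as in GFP cells. For JUNB, normalization over probe sets reaching 100 gave 0.36 for CSS in shRNA cells and 0.39 in GFP cells, also of the same sign.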

How the results depend on the processing

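Of the 5 counts past 2-fold, each 0 of the 8 measured genes after quantile normalization, 3 moved under an alternative. With the values as deposited 1 gene (IER3, lower) passed with both treatments against the control and 3 genes (JUNB, DUSP1 and ZFP36, lower) with the shRNA in CSS. At 1.5-fold 1 gene (IER3, lower) passed with the shRNA in FCS and 3 (JUNB, DUSP1 and ZFP36, lower) with the shRNA in CSS. A common median, no floor, a floor of 100, no filter, a minimum of 100, the mean over probe sets, and a 3-fold rule moved none of them, and neither did dropping filter and floor together, which was added after seeing the data. Normalization without the shRNA CSS array, which gives only the comparisons among the other 3 arrays, left both counts at 0. The median change of the measured genes for CSS in GFP cells was 0.26 to 0.29 over 9 alternatives, and for the shRNA in FCS -0.07 to 0.11. Medians that use the shRNA CSS array ranged more widely: -0.73 to 0.03 with both treatments, -0.24 to 0.32 for CSS in shRNA cells and -0.69 to -0.18 for the shRNA in CSS. None of the 8 genes changed sign for CSS in GFP cells or the shRNA in FCS under the alternatives that gave a value (7 for DUSP6 and KLF6, 8 for JUNB and 9 for the others), but ZFP36 came to -0.07 with the shRNA in FCS at a floor of 100 and DUSP6 to 0.09 for CSS in GFP cells as a mean over probe sets. For JUNB with both treatments, normalization over probe sets reaching 100 gave 0.17. With the deposited values the median of all genes was -0.16, -0.19 and -0.20 in the comparisons that use that array, and the median departure from additivity was -0.53 against -0.13. None of the 8 genes passed limma for either factor under 3 alternatives. Unadjusted, 0 to 1 passed for serum (305 to 985 of all 7965 genes) and 1 to 2 for the shRNA (381 to 984). The limma adjusted p of IER3 for the shRNA was 0.110 to 0.713. Leaving out an array leaves limma no residual degree of freedom, so no such fit was run. No paired analysis was possible because each condition has 1 array.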
